A study of Dicosmoecus gilvipes with 20 samples.

Results

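The hottest step of a laboratory warming series in the caddisfly Dicosmoecus gilvipes is described here, as RNA sequencing of 5 libraries of larvae held at 28.6°C against 5 libraries of larvae held at 25°C. These 10 libraries were taken by their temperature labels from the 20 of the series, which also holds 5 libraries each at 15.5°C and 20°C. All groups were thorax tissue of larvae in the fifth instar from a single river, brought to a common cool temperature, warmed stepwise to their own temperature and kept there for a day, with no treatment other than temperature. RNA of the larvae of a temperature was mixed in equal amounts and the libraries were made from that mixture, so the spread between the 5 libraries of a temperature is technical and every test below compares a pool of larvae at 28.6°C with a pool at 25°C. Temperature and pool cannot be told apart.

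Reads had been counted by the authors on contigs of a transcriptome assembled without a genome. The estimated counts of all contigs of a subcomponent, the assembler's nearest equivalent of a gene, were summed, and values are given as CPM, counts brought to a common library total after scaling, which compare libraries but not genes of different length. Library totals were 8221870 to 10304877 estimated counts at 28.6°C and 6756103 to 9621568 at 25°C. A ribosomal-like subcomponent (comp65386_c0) was left out of these sums. It took 15.1%, 5.59%, 8.18%, 4.91% and 9.63% of the estimated counts of the libraries at 28.6°C, against 1.93%, 1.18%, 0.660%, 0.612% and 0.490% at 25°C. Its share was higher in every library at 28.6°C, with a difference between means of 7.71 percentage points (exact two-sided permutation test over the 252 regroupings of 5 and 5 libraries, p = 0.00794, the smallest this design gives). The longest read position in the counting output was 99 in all 5 libraries at 28.6°C and in 1 at 25°C, and 188 in the other 4 at 25°C. The longer limit was taken here as a sign of joined read pairs, which the labels do not state and which the study's methods describe for its libraries in general. Of the counts without comp65386_c0, 40.8 to 41.1% at 28.6°C came from reads that mapped to a single contig, against 42.8 to 43.1% at 25°C. The part of these properties in the changes below was not tested beyond the fits named with the results.

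In animals a rise in temperature toward the limit of tolerance unfolds proteins, and the heat shock factor then switches on genes of molecular chaperones, which bind unfolded chains and help them refold or pass them on for degradation. The families differ in role: small heat shock proteins hold unfolded proteins in a soluble state without using ATP, hsp70 proteins with their DnaJ partners fold them in cycles of ATP use, hsp90 proteins complete the folding of kinases and receptors, and the barrel-shaped chaperonins fold proteins in the cytosol and mitochondria. Cognate forms of hsp70 are made at all temperatures, whereas inducible forms are made mainly under stress.

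A subcomponent was taken as differentially expressed where edgeR's quasi-likelihood test gave an adjusted p under 0.05 and its level differed at least 4-fold, and "rose" and "fell" are used of any subcomponent under that adjusted p. Of 15220 subcomponents tested, 341 (2.24%) were differentially expressed, 212 (1.39%) higher and 129 (0.848%) lower at 28.6°C. With only the libraries of read limit 99, all 5 at 28.6°C and 1 at 25°C, 334 were differentially expressed. By the adjusted p alone 4531 (29.8%) rose and 4477 (29.4%) fell. The median change over all subcomponents was 0.01 on the log2 scale, and 87.6% of them lay within 2-fold of their level at 25°C. The libraries of the 2 temperatures did not overlap for 6373 subcomponents (41.9%). Large changes were more often rises: 83 subcomponents were at least 8-fold higher and 28 at least 8-fold lower at 28.6°C, while 9 were at least 32-fold higher and 4 at least 32-fold lower. In bulk tissue, fewer cells of a type and less RNA per cell cannot be told apart.

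**Figure D1:**
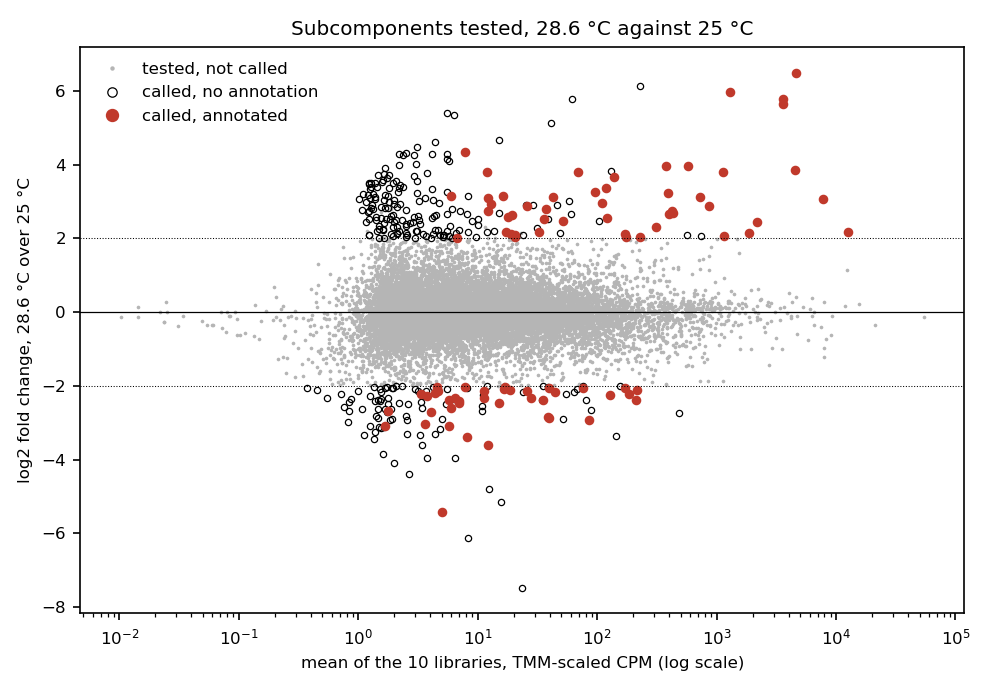
Change at 28.6°C against 25°C (log2 fold change, vertical axis) of the 15220 subcomponents tested, against their mean level over the 10 libraries in CPM on a log axis, with filled points for annotated and open points for unannotated differentially expressed subcomponents, and dotted lines at 4-fold. The 88 annotated ones include most of the abundant rises, while many of the unannotated ones lie near 2 CPM.

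Names come from the annotation column of the study's table, which was made only for contigs that the study had found to differ with temperature in these same libraries. Of the 527 annotated subcomponents tested, 88 (16.7%) were differentially expressed, 49 (9.3%) higher and 39 (7.4%) lower at 28.6°C. By the adjusted p alone 203 (38.5%) rose and 284 (53.9%) fell, and their median log2 change was -0.39. All counts of named groups below are drawn from these 527, so they are not independent evidence of a direction. Some subcomponents belong to several lists, so the counts of the lists also overlap.

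The chaperone lists, which were matched by words in the annotation, moved together. The list of chaperonins and mitochondrial chaperones also holds ATPase inhibitor mai-2, tubulin-folding cofactor B and thioredoxin domain-containing protein 9, which are not chaperonins. All 39 subcomponents of this list and of the lists of small heat shock proteins, the hsp70 family and the hsp90 family rose at 28.6°C. None of the 39 overlapped between the temperatures (448 of the 527 annotated subcomponents, 85.0%, did not). Of the 39, 27 were differentially expressed, and the median log2 change was 2.44. Together the 39 took 8.38 to 8.96% of the scaled counts in the libraries at 28.6°C, against 1.17 to 1.22% at 25°C. In the cooler groups they took less, 0.904 to 0.948% of counts at 15.5°C and 0.729 to 0.797% in the libraries of 20°C, so the step to 28.6°C held most of the rise over the series.

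Small heat shock proteins included the largest rise of all subcomponents tested, with all 7 members higher, 5 of them differentially expressed, and a median log2 change of 2.14. Their summed level was 26291 to 28343 CPM in the libraries at 28.6°C, against 2794 to 2949 CPM at 25°C. Lethal(2)essential for life, a small heat shock protein needed for development in Drosophila, was annotated on 4 subcomponents. Subcomponents that share a name are called copies here. The most changed of them (comp64489_c0) had 9376, 8474, 8963, 9637 and 8976 CPM at 28.6°C, against 102, 86.8, 96.4, 105 and 113 CPM at 25°C. Its level was 89.8-fold higher at 28.6°C, a log2 change of 6.49 (standard error 0.073, edgeR adjusted p = 1.88e-33). Its contig seq13, with a mean of 1350 CPM at 28.6°C, was annotated as heat shock protein 26 instead. A second copy (comp64060_c3), all of whose reads mapped to a single contig, had 7414, 6782, 6879, 7339 and 6738 CPM at 28.6°C, against 147, 132, 139.7, 137 and 141 CPM at 25°C. Its log2 change was 5.65 (standard error 0.063, edgeR adjusted p = 1.31e-33), and both copies averaged 67.0 CPM or less at 20°C. The other copies were higher at 25°C to start with and changed less, by 2.14 and 1.59 on the log2 scale.

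Heat shock protein 23, one of the study's own targets, had 1821, 1801, 1819, 1984 and 1901 CPM at 28.6°C, against 443, 411, 483, 442 and 454 CPM at 25°C. The groups lay far apart, and its log2 change was 2.06 (standard error 0.047, edgeR adjusted p = 1.52e-25). It climbed at every step of the series, with means of 63.7, 194, 447 and 1865 CPM from 15.5 to 28.6°C. Its total rise in the hot step was smaller than between 15.5°C and 25°C by 0.74 on the log2 scale (edgeR adjusted p = 2.05e-09 for the difference). The hot step spans fewer degrees, and the changes were not scaled per degree. Heat shock protein beta-1 averaged 3700.5 ± 177 CPM at 28.6°C and 682 ± 35.5 CPM at 25°C (SD, n = 5 libraries each), and it had been higher, at 975 CPM, in the coolest group.

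In the hsp70 list all 13 members rose, 9 of them were differentially expressed, and the median log2 change was 3.13. The inducible form annotated as major heat shock 70 kDa protein Ab (comp65626_c0) had 6557, 6952, 6662, 7802 and 7305 CPM at 28.6°C, against 125, 120.1, 129, 128 and 135 CPM at 25°C. Every library at 28.6°C lay far above every library at 25°C, and the log2 change was 5.79 (standard error 0.055, edgeR adjusted p = 3.48e-35). At the cooler temperatures it was flat, with 109 CPM at 20°C and 133 at 15.5°C. The 3 subcomponents of component comp56264, with names of the hsp70 family, moved nearly alike: a 70 kDa heat shock protein and cognate 2 both by 3.97, and heat shock protein 68 by 3.81. All of their reads mapped to single contigs.

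Heat shock 70 kDa protein cognate 4, the main constitutive hsp70 of the Drosophila cytosol, was named after its values were seen because it was the most abundant of the list. It had 21332, 21696, 19818, 20292 and 19824 CPM at 28.6°C, against 4775, 4557, 4349, 4496 and 4579 CPM at 25°C, a log2 change of 2.18 (standard error 0.042, edgeR adjusted p = 2.30e-27). Its mean gained more CPM in the hot step than that of any other member of the list. Only 0.000774% of its counts came from reads of a single contig, so the division between near-identical contigs rests on the authors' counting program. The organelle forms changed less and had a dip in the middle of the series. Cognate 3, the hsp70 of the endoplasmic reticulum, averaged 1597 ± 52.1 CPM at 28.6°C and 406 ± 12.3 CPM at 25°C (SD, n = 5 libraries each), against 367 CPM at 20°C and 1229 CPM at 15.5°C. Cognate 5, the mitochondrial form, rose by 1.97 and had likewise been higher at 15.5°C (168 CPM) than at 25°C (101 CPM).

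**Figure D2:**
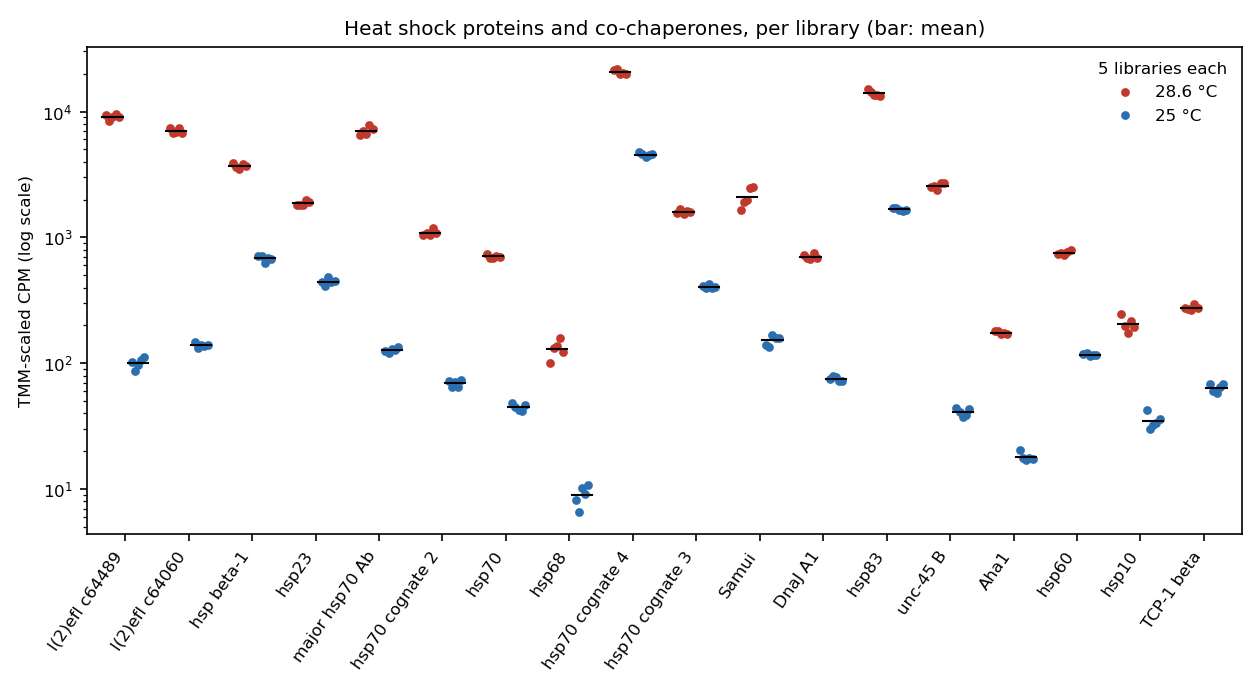
Level in CPM on a log axis of chaperone genes in each of the 5 libraries at 28.6°C and the 5 at 25°C, each point a library and each bar a mean. For every gene shown the points of the 2 temperatures are separate, but the rules by which genes were named favour such separation. Of all annotated subcomponents 85.0% do not overlap. The gap is widest for lethal(2)essential for life (comp64489_c0), unc-45 and the major hsp70 Ab.

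Heat shock protein 70 B2, the hsp70 that the study chose as a target, held inducible and constant contigs in the same subcomponent. The sum had 1379.9, 1542, 1462, 1701 and 1576 CPM at 28.6°C, against 209.9, 208, 202, 207 and 210.2 CPM at 25°C, a log2 change of 2.88 (standard error 0.052). Most of what remained at 25°C was a single contig (seq5) that did not change, with 194, 192, 179.9, 194 and 188 CPM at 28.6°C, against 193, 191, 187, 189.6 and 193 CPM at 25°C. The target contig itself (seq7) had 692, 794, 785, 924 and 857 CPM at 28.6°C, against 2.08, 1.15, 1.1, 2.87 and 1.68 CPM at 25°C, a log2 change of 8.64 (standard error 0.30, edgeR adjusted p = 3.33e-14). Only 2.90% of the reads of seq7 were unique to it, against 100% for seq5, and with unique counts the sum changed by 0.11 (edgeR adjusted p = 0.098).

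Partners of hsp70 rose with it. Samui, a BAG domain protein that releases substrates from hsp70, had 1658, 1916, 1983, 2482 and 2528 CPM at 28.6°C, against 139.9, 134, 169, 160.4 and 160.4 CPM at 25°C. Its log2 change was 3.79 (standard error 0.094) from estimated counts and 1.97 from unique counts, which were 0.174% of its total. DnaJ homolog subfamily A member 1, which stimulates the ATPase of hsp70, changed by 3.22 (standard error 0.047), and the 97 kDa heat shock protein, a relative of hsp70 that exchanges its nucleotide and was named after its values were seen, by 3.13 (standard error 0.048). DnaJ protein homolog 1 had the smallest change of the list, 1.35.

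All 7 members of the hsp90 list rose and 5 were differentially expressed, with a median log2 change of 3.06. Heat shock protein 83, the cytosolic hsp90 of insects, had 15032, 14224, 13481, 13547 and 13327 CPM at 28.6°C, against 1715, 1708, 1646, 1617 and 1657 CPM at 25°C. The log2 change was 3.06 (standard error 0.043, edgeR adjusted p = 3.87e-31), and 2.21 from the few reads of a single contig. The largest change of the list belonged to unc-45 homolog B, a co-chaperone that folds the myosin head. It had 2495, 2539, 2387, 2727 and 2686 CPM at 28.6°C, against 43.8, 41.4, 37.2, 39.2 and 43.7 CPM at 25°C, 62.1-fold more, a log2 change of 5.96 (standard error 0.057, edgeR adjusted p = 3.48e-35).

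Other helpers of hsp90 rose by less than unc-45. The cysteine and histidine-rich domain-containing protein changed by 3.66 (standard error 0.073). The activator of the hsp90 ATPase, Aha1, averaged 175 ± 4.59 CPM at 28.6°C and 18.1 ± 1.32 CPM at 25°C (SD, n = 5 libraries each), a log2 change of 3.26. Stress-induced-phosphoprotein 1, which joins hsp70 to hsp90, changed by 2.65, and the smallest change of the list, 1.55, was that of calcyclin-binding protein.

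In the list of chaperonins and mitochondrial chaperones all 12 members rose and 8 were differentially expressed, with a median log2 change of 2.07. The mitochondrial hsp60 had 739.8, 749.6, 723, 760.5 and 799 CPM at 28.6°C, against 119, 121, 115, 116 and 116 CPM at 25°C, a log2 change of 2.68 (standard error 0.042, edgeR adjusted p = 8.27e-30). Its partner hsp10 changed by 2.54 (standard error 0.082). Subunits alpha, beta and gamma of the cytosolic T-complex chaperonin changed by 2.02, 2.10 and 1.95. Hsp60, hsp10 and these 3 subunits had all been lower at 25°C than at 15.5°C, for example hsp60 with 298 CPM at 15.5°C, so the change of direction between the steps was larger than the rise itself, at 4.02 for hsp60 (edgeR adjusted p = 5.80e-27 for the difference between steps). ATPase inhibitor mai-2, which stops the mitochondrial ATP synthase from running backward, rose by 0.91 and at every earlier step as well.

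**Figure D3:**
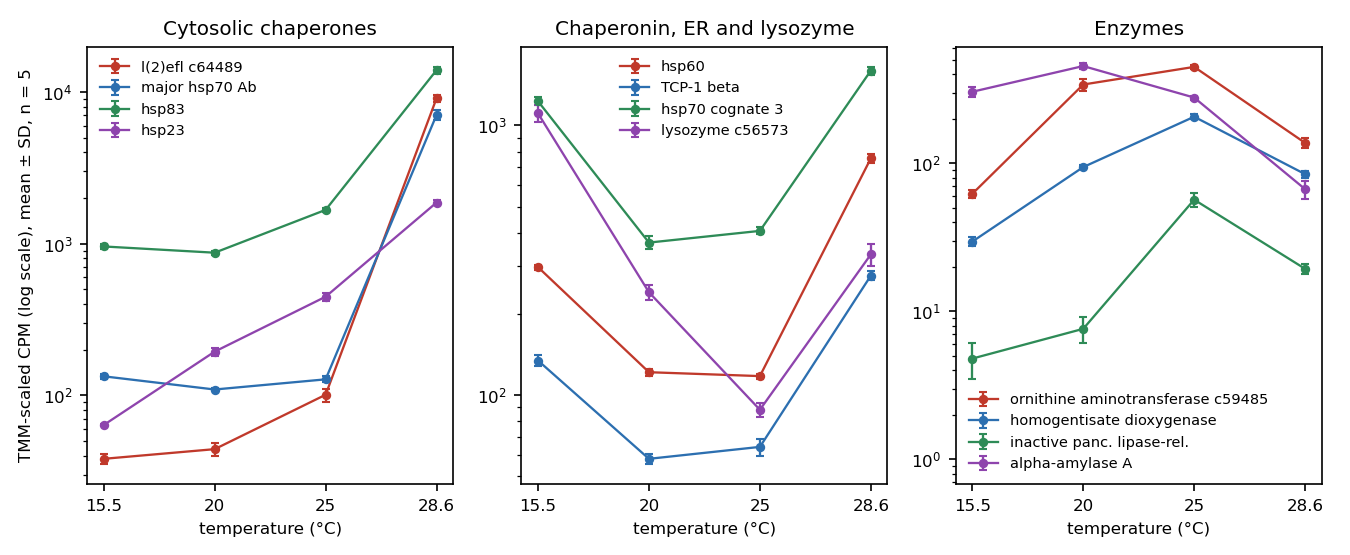
Mean level in CPM (log axis) with its SD over 5 libraries at 15.5, 20, 25 and 28.6°C, drawn evenly spaced, for 12 genes in 3 panels. Hsp23 climbs at each step, hsp60 and lysozyme have their lowest mean near 20 or 25°C, and ornithine aminotransferase and homogentisate dioxygenase climb to 25°C and are lower at 28.6°C.

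The hot step was also set against moderate warming, by testing whether the change between 25 and 28.6°C differed from the change between 15.5 and 25°C. Both changes share the libraries at 25°C. The hot step spans fewer degrees than moderate warming, and the changes were compared as they stand, not per degree. The difference between steps passed the adjusted p and exceeded 4-fold for 1118 subcomponents (7.35%), 570 (3.75%) more positive and 548 (3.6%) more negative in the hot step, and for 179 of the annotated ones (34.0%). Among annotated subcomponents that averaged at least 10 CPM over the libraries at 28.6°C and 25°C and did not overlap between them, the largest positive differences were those of unc-45 (6.77), major hsp70 Ab (5.85), a lysozyme (comp56573_c0, 5.56), muscle-specific protein 20 (5.41) and lethal(2)essential for life (5.09). Lysozyme, which cuts bacterial cell walls, had 384, 318, 308, 343 and 307 CPM at 28.6°C, against 90.6, 87.0, 84.3, 82.8 and 95.6 CPM at 25°C, a log2 change of 1.91 (standard error 0.064, edgeR adjusted p = 2.88e-21). It was nonetheless highest in the coolest group, at 1108 CPM. Another lysozyme (comp54048_c0) fell by 0.91 in the hot step.

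Under the same limits, the largest negative differences between steps belonged to genes that climbed to 25°C and fell beyond it. Ornithine aminotransferase (comp59485_c0), which breaks down ornithine in mitochondria, averaged 62.3, 341, 449 and 138 CPM from 15.5 to 28.6°C, a difference of -4.55. The ubiquitin ligase RNF139 averaged 11.8, 82.6, 140.1 and 91.4 CPM over the same temperatures, a difference of -4.17. Homogentisate 1,2-dioxygenase, an enzyme of tyrosine breakdown, averaged 29.6, 94.4, 207 and 84.6 CPM, a difference of -4.08. An inactive pancreatic lipase-related protein (comp58586_c0, -5.08) and cytochrome P450 6l1 (-4.13) had the same course at lower levels.

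Muscle genes did not move as a group. Of 7 in the list, 2 rose and 4 fell, with a median log2 change of -0.51, although their summed level was 8146 to 9483 CPM at 28.6°C, against 1210 to 1272 CPM at 25°C. Nearly all of that sum at 28.6°C, but a much smaller part of it at 25°C, was muscle-specific protein 20, a calponin-like protein of synchronous muscle in Drosophila. It had 8475, 8351, 7749, 9061 and 8434 CPM at 28.6°C, against 607, 601, 557, 541 and 585 CPM at 25°C. Its log2 change was 3.86 (standard error 0.052, edgeR adjusted p = 1.88e-31), and 4.40 from the 2.79% of its counts that were unique to a contig. Troponin I, which holds the thin filament inactive without calcium, went the other way, with 29.9, 28.3, 27.2, 30.5 and 31.1 CPM at 28.6°C, against 131, 114, 115, 125 and 126 CPM at 25°C, a log2 change of -2.05 (standard error 0.058, edgeR adjusted p = 4.48e-23). The troponin used as a reference had been chosen by the study for low variation in this same experiment. It did not pass the test, at 3820.1 ± 294 CPM at 28.6°C and 3882 ± 124 CPM at 25°C (SD, n = 5 libraries each), which places muscle RNA in both groups. Myosin light chain kinase had 13.1, 13.1, 8.23, 4.52 and 5.60 CPM at 28.6°C, against 31.5, 43.4, 30.9, 31 and 29.2 CPM at 25°C. Its libraries at 28.6°C differed among themselves, with replicates 1 and 2 the highest, and its log2 change was -1.87 (standard error 0.16).

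Genes of the ubiquitin and proteasome list, which holds ubiquitin ligases as well as ubiquitin hydrolases, rose in most cases. Of the 14, 11 rose and 2 fell, with a median log2 change of 1.04 and 1 differentially expressed. That member was AN1-type zinc finger protein 2B, of a family that brings misfolded proteins to the proteasome, with 44.1, 44.6, 42.7, 49.9 and 46.4 CPM at 28.6°C, against 6.88, 4.15, 5.23, 6.33 and 7.13 CPM at 25°C, a log2 change of 2.87 (standard error 0.10). Sequestosome-1, the receptor that carries ubiquitinated protein to autophagy, was by far the most abundant of those named, with 2373, 2356, 2253, 2475 and 2447 CPM at 28.6°C, against 601, 597, 623, 578 and 606 CPM at 25°C. Its log2 change of 1.99 (standard error 0.039, edgeR adjusted p = 4.21e-27) lay just under 4-fold. The ubiquitin ligase HERC4 rose by 1.96 and proteasome regulatory subunit 9 by 1.6.

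The list of folding and translocation in the endoplasmic reticulum gave no common direction, with 3 of 11 members higher, 6 lower and a median log2 change of -0.20. It mixes folding genes with parts of the translocation channel, and cognate 3, the hsp70 of that compartment, was counted in the hsp70 list instead. The mesencephalic astrocyte-derived neurotrophic factor homolog, which is induced by stress of that compartment, averaged 296 ± 21.3 CPM at 28.6°C and 93.3 ± 5.24 CPM at 25°C (SD, n = 5 libraries each), a log2 change of 1.67. Canopy homolog 2 rose by 1.30. Protein disulfide-isomerase A6, which forms disulfide bonds, fell by 1.66, and the Man9GlcNAc2 glucosyltransferase of protein glycosylation fell by 0.94. The translocon-associated subunit beta, a target of the study, had overlapping libraries and did not pass the test (log2 change 0.08, standard error 0.081, edgeR adjusted p = 0.379).

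Genes of protein synthesis and of RNA handling rose more often than they fell. In the first list 12 of 13 rose and 1 fell (median log2 change 1.08), and only GCN2 was differentially expressed. Its summed level was 457 to 485 CPM at 28.6°C and 324 to 347 CPM at 25°C, but 806 to 847 CPM at 15.5°C. In the second list 22 of 29 rose and 6 fell (median 0.88). Its 6 differentially expressed members include AN1-type zinc finger protein 2B, also counted in the ubiquitin list. Of all annotated subcomponents 38.5% rose. GCN2, the kinase that slows translation when amino acids run short, had 23.3, 21.7, 22.4, 23.5 and 23.2 CPM at 28.6°C, against 2.46, 4.44, 2.92, 2.98 and 1.45 CPM at 25°C, a log2 change of 2.93 (standard error 0.15). The elongation factor SPT4, which keeps RNA polymerase II moving, changed by 3.12 (standard error 0.089), and averaged 77.3 ± 6.0 CPM at 28.6°C and 8.63 ± 0.751 CPM at 25°C (SD, n = 5 libraries each). The methylosome subunit pICln, which takes part in the assembly of splicing particles, changed by 2.47, and vasa, an RNA helicase of the germ line, by 2.18. Isoleucyl-tRNA ligase (1.51), the nucleolar protein IMP3 (1.27) and a subunit of the H/ACA particle (0.81), which modifies ribosomal RNA, also rose.

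Some large rises stood outside these groups. Carbonic anhydrase 2, which converts carbon dioxide and bicarbonate and is a target of the study, had 13.2, 15.3, 14.2, 15.1 and 17.6 CPM at 28.6°C, against 0.924, 0.573, 0.486, 0.124 and 0.446 CPM at 25°C. It was nearly absent at 25°C, with 22 counts over the 5 libraries, against 618 at 28.6°C, a ratio of 28.8 after scaling and a fitted log2 change of 4.33 (standard error 0.19). A Tigger transposable element-derived protein changed by 3.79 (standard error 0.14), to 21.5 to 24.1 CPM at 28.6°C, against 0.860 to 1.95 CPM at 25°C. Erythroid differentiation-related factor 1 changed by 3.37 and GDP-D-glucose phosphorylase 1, which removes a misformed sugar nucleotide, by 3.14. The PDF receptor, which receives a clock neuropeptide, had 29.9 to 39.1 CPM at 28.6°C, against 3.72 to 6.68 CPM at 25°C, a log2 change of 2.63. Sodium-dependent transporter SLC6A17 for neutral amino acids rose by 2.08. The nutrient amino acid transporter 1 rose by 1.75 from estimated counts but had a change of -0.67 from unique counts, which were 8.15% of its total.

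**Figure D4:**
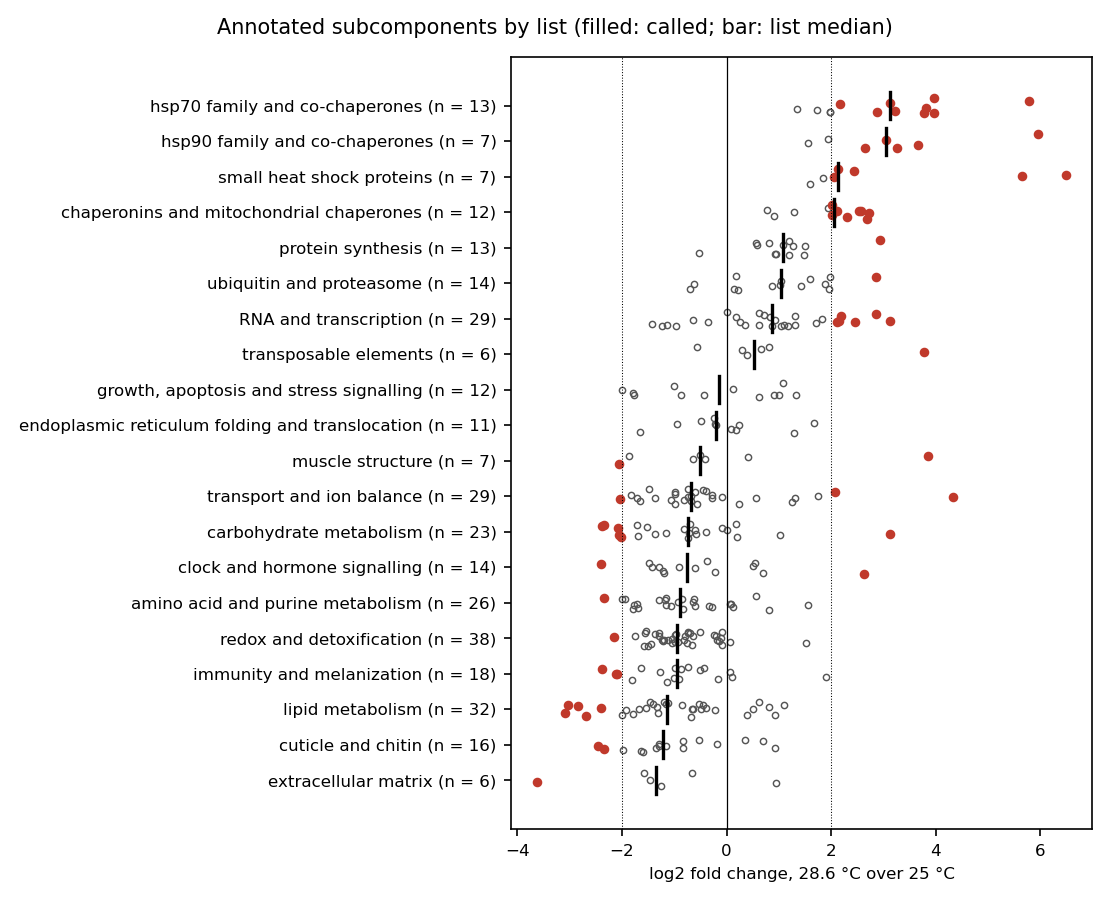
Log2 change at 28.6°C against 25°C of every tested member of each gene list, each point a subcomponent, filled where it was differentially expressed, with the list median as a bar and dotted lines at 4-fold. The 4 chaperone lists lie wholly above 0, and the medians of the redox, immunity, lipid, cuticle and matrix lists lie between -0.95 and -1.35.

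Digestive enzymes fell almost without exception. Of 38 subcomponents that served as markers of gut and digestive gland, 36 fell and 2 rose, 10 were differentially expressed, all lower, and the median log2 change was -1.49. Their summed level was 5757 to 6448 CPM at 28.6°C, against 11100 to 13336 CPM at 25°C, and it was higher still at 20°C. A smaller amount of gut in the samples and less RNA of these genes in gut cells cannot be told apart. No annotation matched the silk gland markers.

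Chymotrypsin-2 (comp57741_c0), a protease of the gut lumen, had 20.0, 20.6, 15.9, 22.6 and 18.9 CPM at 28.6°C, against 172, 132, 149, 151 and 150.2 CPM at 25°C, a log2 change of -2.94 (standard error 0.080, edgeR adjusted p = 1.78e-23). Trypsin-7 (comp55070_c1), another of these proteases, had 42.3, 50.7, 42.2, 44.5 and 41.6 CPM at 28.6°C, against 243, 214, 205, 194 and 201 CPM at 25°C, a log2 change of -2.25 (standard error 0.065). In both genes the libraries at 28.6°C lay below all of those at 25°C by a wide margin. Chymotrypsin BI (comp58365_c0) fell by 2.22 and chymotrypsin-1 (comp55087_c0), a target of the study, by 1.69. Other copies with these names fell less, chymotrypsin-2 by 1.21 and 1.08, trypsin-7 by 1.11, chymotrypsin BI by 1.47 and chymotrypsin-1 by 0.90. Membrane alanyl aminopeptidase, which trims peptides at the gut wall, fell by 1.73 and had been highest at 20°C, with means of 50.8, 239.9, 179.9 and 54.0 CPM from 15.5 to 28.6°C. The members that rose were a trypsin-5 (0.47) and peritrophin-48 (0.93), a protein of the gut lining.

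Carbohydrate and lipid genes fell in most cases. In the carbohydrate list 17 of 23 (73.9%) fell and 4 rose, with a median log2 change of -0.73. In the lipid list 26 of 32 (81.2%) fell and 4 rose, with a median of -1.15. Of all annotated subcomponents 53.9% fell. Both lists share members with the digestive markers above, among them alpha-amylases and pancreatic lipases. Alpha-amylase A, the starch-splitting target of the study, had 74.2, 78.5, 62.4, 56.3 and 63.5 CPM at 28.6°C, against 292, 282, 274, 272 and 273 CPM at 25°C, a log2 change of -2.05 (standard error 0.067, edgeR adjusted p = 1.82e-21). A family 31 glucosidase (comp58070_c4) fell by 2.39, beta-galactosidase by 2.07, and inositol oxygenase, which opens the inositol ring, by 2.34. Alpha-N-acetylgalactosaminidase, a lysosomal enzyme, had 7.91, 10.7, 8.33, 9.16 and 10.6 CPM at 28.6°C, against 77.1, 68.1, 67.3, 68.4 and 70.3 CPM at 25°C, a log2 change of -2.88 (standard error 0.075). Myrosinase 1, a beta-thioglucosidase, fell by 2.15. The trehalose transporter Tret1 (comp63446_c0), which releases the main blood sugar of insects from the fat body and is a target of the study, fell by 0.81, with 94.7 to 112 CPM at 28.6°C, against 158 to 188 CPM at 25°C. The other 5 subcomponents of that name had log2 changes of -1.72 to -0.09.

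Pancreatic lipase-related protein 2 (comp54657_c0), which belongs to both the lipid and the digestive lists, had 11.1, 12.7, 8.74, 7.03 and 7.17 CPM at 28.6°C, against 72.5, 68.3, 62.7, 65.9 and 71.3 CPM at 25°C. The log2 change was -2.84 (standard error 0.11), and its mean had been falling since 15.5°C (307 CPM). Endothelial lipase fell by 2.0 and the fatty acyl-CoA reductase CG5065, which makes fatty alcohols, by 1.67. Apolipophorin-3, a carrier of lipid in the hemolymph, averaged 61.0 ± 6.49 CPM at 28.6°C and 139 ± 17.5 CPM at 25°C (SD, n = 5 libraries each), after 1435 CPM at 15.5°C and 1178 CPM at 20°C. Luciferin 4-monooxygenase, a name given in insects to relatives of the acyl-CoA synthetases, fell by 2.14 from estimated counts, but changed by 0.82 from unique counts, 5.47% of its total.

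Genes of amino acid and purine metabolism fell likewise, in 20 of 26 members, with 4 higher and a median log2 change of -0.90. The members that rose were glutaminase (1.56), tyrosine 3-monooxygenase (0.80), AMP deaminase 2 (0.56) and argininosuccinate synthase (0.12). A further ornithine aminotransferase (comp65600_c2) fell by 1.99, beta-ureidopropionase, which ends pyrimidine breakdown, by 1.94, and alpha-aminoadipic semialdehyde synthase, which breaks down lysine, by 1.70. Xanthine dehydrogenase, which makes uric acid, fell by 0.61 from its peak at 25°C. Henna, the phenylalanine hydroxylase of Drosophila, fell by 0.64 from estimated counts and changed by 1.69 from unique counts, 5.05% of its total.

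Of the redox and detoxification genes 31 of 38 fell and 1 rose, with a median log2 change of -0.95 and 1 differentially expressed. Carbonyl reductase 3 (comp55584_c0) had 9.78, 11.6, 8.94, 9.04 and 7.69 CPM at 28.6°C, against 47.7, 42.3, 41.8, 39.6 and 41.7 CPM at 25°C, a log2 change of -2.15 (standard error 0.091, edgeR adjusted p = 8.83e-19). The P450 enzymes 6j1 (comp65329_c0) and 9e2 (comp61555_c0), which oxidise foreign compounds, fell by 1.55 and 1.23, and the smallest falls among their other copies were 0.24 and 0.21. The exception was the regulatory subunit of glutamate-cysteine ligase, the first enzyme of glutathione synthesis, with 195 to 214 CPM at 28.6°C, against 68.3 to 74.4 CPM at 25°C, a log2 change of 1.52 (standard error 0.046).

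Immune genes fell in 15 of 18 members, with the lysozyme above as the sole rise, and the median log2 change was -0.95. All 3 members that were differentially expressed were phenoloxidases, which make melanin in wounds and around parasites and served as hemocyte markers. Phenoloxidase subunit A3 (comp65529_c0) had 87.4, 92.1, 78.4, 73.5 and 76.4 CPM at 28.6°C, against 384, 363, 331, 332 and 345 CPM at 25°C, a log2 change of -2.10 (standard error 0.055, edgeR adjusted p = 5.76e-24). A second A3 subcomponent (comp56149_c0) changed by -2.12 and phenoloxidase subunit 2 by -2.39, and their summed level was 80.6 to 103 CPM at 28.6°C, against 367 to 430 CPM at 25°C. The 3 genes fell to a similar extent, and fewer hemocytes and less RNA in each cannot be told apart. Peptidoglycan-recognition protein LB, which breaks down bacterial cell wall fragments, fell by 1.82, with 42.4 to 58.4 CPM at 28.6°C, against 149 to 222 CPM at 25°C.

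**Figure D5:**
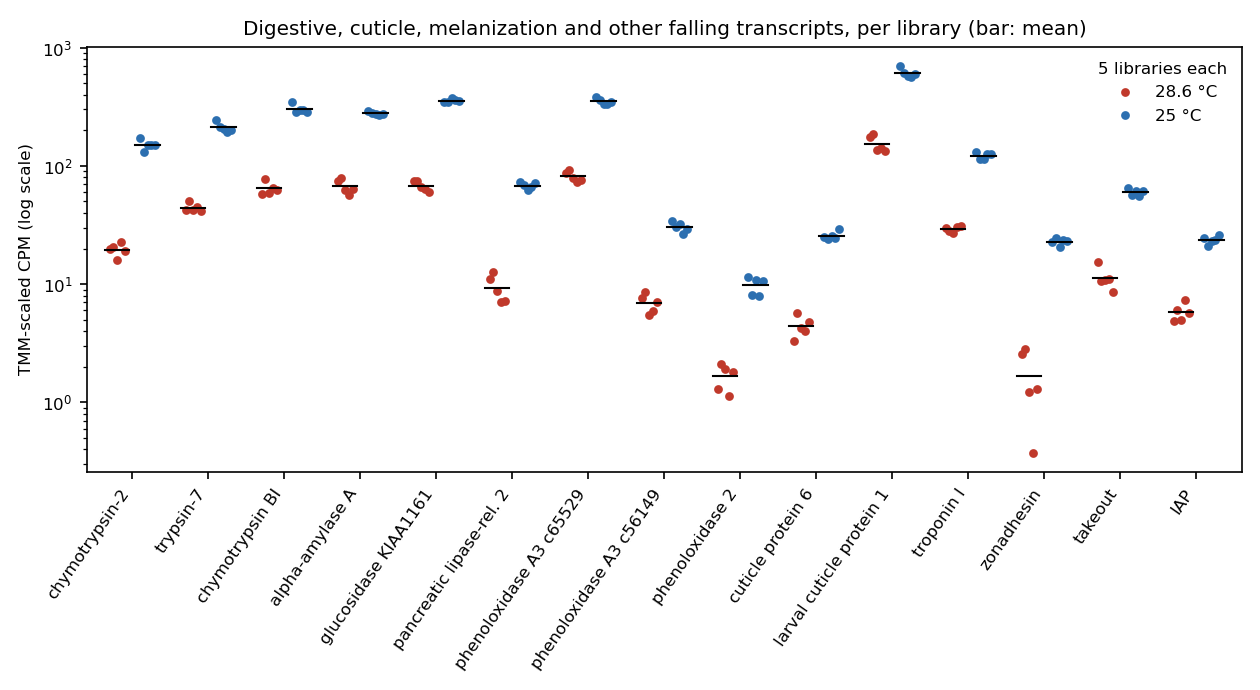
Level in CPM on a log axis of genes that were lower at 28.6°C, in each of the 5 libraries at 28.6°C and the 5 at 25°C, each point a library and each bar a mean. The points of the 2 temperatures do not overlap for any gene shown, but the rules by which genes were named favour such separation. Of all annotated subcomponents 85.0% do not overlap. The points of zonadhesin at 28.6°C are the most spread.

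Cuticle and matrix genes fell in most cases, 12 of 16 and 5 of 6, with 3 and 1 higher and median log2 changes of -1.22 and -1.35. Cuticle protein 6 (comp53736_c0) had 3.31, 5.74, 4.27, 4.02 and 4.82 CPM at 28.6°C, against 24.8, 24.2, 25.4, 24.5 and 29.3 CPM at 25°C, a log2 change of -2.46 (standard error 0.13). A second cuticle protein 6 (comp58123_c0) rose by 0.36, with means of 26.8 CPM at 28.6°C and 20.6 CPM at 25°C. Larval cuticle protein 1 (comp61138_c1) fell by 1.97 and larval cuticle protein 16/17 by 1.61. The endocuticle glycoprotein SgAbd-2 fell by 2.34 in comp61198_c0 and by 0.53 and 1.30 in its other copies. Copies of probable chitinase 3 went opposite ways: comp64787_c0 fell by 1.35, while the more abundant comp64069_c1 rose by 0.69, with means of 479 CPM at 28.6°C and 296 CPM at 25°C. Zonadhesin, a large mucin-like adhesion protein and a target of the study, had 2.59, 2.81, 1.22, 0.376 and 1.30 CPM at 28.6°C, against 22.6, 24.5, 20.5, 23.6 and 22.9 CPM at 25°C, the largest fall of an annotated gene by the naming rule, with a log2 change of -3.62 (standard error 0.16, edgeR adjusted p = 2.23e-18). Collagen alpha-2(IV), of the basement membrane, had 217, 229.6, 128, 93.2 and 96.2 CPM at 28.6°C, against 512, 469, 401, 456 and 436 CPM at 25°C, a log2 change of -1.57 (standard error 0.16). For both genes replicates 1 and 2 at 28.6°C lay above the other libraries of that temperature, yet below every library at 25°C. Procollagen-lysine dioxygenase, which hydroxylates collagen, was the matrix gene that rose, by 0.95 as a sum. Its annotated contig with most counts, which is also the study's target, did not pass the test (log2 change 0.39, edgeR adjusted p = 0.365).

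Storage proteins of the fat body also fell. Larval serum protein 1 beta averaged 4305 ± 599 CPM at 28.6°C and 7288 ± 588 CPM at 25°C (SD, n = 5 libraries each), a log2 change of -0.76, after a peak of 28344 CPM at 20°C. A basic juvenile hormone-suppressible protein 2 (comp64679_c1) had 6523, 6062, 4369, 3615 and 3535 CPM at 28.6°C, against 9559, 11775, 10936, 11843 and 11699 CPM at 25°C, a log2 change of -1.21 (standard error 0.11), but it changed by 0.94 from the 0.394% of its counts that were unique. Other copies of that name fell by 0.91 (comp64905_c0) and 0.60 (comp59150_c0), and a further one (comp64679_c0) had a log2 change of 0.54 that did not pass the test. Over the 7 fat body markers 5 fell and none rose, and their sum was 10719 to 16257 CPM at 28.6°C, against 21178 to 26441 CPM at 25°C.

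Clock, hormone and survival genes were mixed. Of 14 genes of clock and hormone signalling 10 (71.4%) fell and 3 rose, with a median log2 change of -0.75, where 53.9% of all annotated subcomponents fell. Protein takeout (comp57418_c0), by annotation a relative of a clock-linked binding protein of Drosophila, holds the contig that the study lists as its circadian clock target. It had 15.2, 10.7, 10.8, 11 and 8.60 CPM at 28.6°C, against 64.6, 56.6, 61.1, 55.4 and 61.3 CPM at 25°C, a log2 change of -2.39 (standard error 0.087, edgeR adjusted p = 2.46e-20). The other subcomponents annotated as takeout rose by 0.51 (comp56771_c0) and fell by 0.22 (comp60571_c1). A circadian clock-controlled protein (comp64682_c2) fell by 1.48. Of 12 genes of growth, apoptosis and stress signalling 6 rose and 6 fell. The apoptosis inhibitor IAP had 4.89, 6.09, 4.98, 7.28 and 5.73 CPM at 28.6°C, against 24.6, 20.9, 23.3, 23.6 and 26.2 CPM at 25°C, a log2 change of -2.0 (standard error 0.091). Caspase-1, an executor of cell death that such inhibitors block, fell as well, by 1.78, with 4.33 to 4.69 CPM at 28.6°C, against 14.3 to 19.0 CPM at 25°C. In the transport list 20 of 29 (69.0%) fell and 6 rose, with a median of -0.68, where 53.9% of all annotated subcomponents fell. The Tret1 members of this list are also in the carbohydrate list. The aquaporin AQPAe.a, a water channel, fell by 0.99.

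The 31 transcripts that the study had picked from these libraries as targets for a later assay were read as sums and as single contigs. As sums 13 rose, 15 fell and 3 did not pass the test, and 5 were differentially expressed in each direction. As single contigs 30 could be tested, of which 10 rose, 16 fell and 4 did not pass. Besides hsp70, the readings differed most for mobility group protein 1A, whose target contig fell by 1.43, to 5.45 ± 1.21 CPM at 28.6°C, against 15 ± 2.76 CPM at 25°C (SD, n = 5 libraries each), while its sum rose by 1.05. TAM41, a mitochondrial lipid enzyme, rose by 1.91 as a contig and by 0.67 as a sum. The target contig of carbonyl reductase fell by 1.02, whereas its subcomponent (comp61657_c0) had overlapping libraries and a log2 change of -0.14 (edgeR adjusted p = 0.172). The study had chosen its 3 reference transcripts for low variation in this same experiment, so their flat levels are not independent evidence. They had log2 changes of 0.06, -0.02 and 0.01 as sums, and none passed the test.

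Some sequences were found almost only at 25°C. An RNA-directed RNA polymerase L (comp43533_c0), an enzyme of negative-strand RNA viruses that was named after its values were seen, had 0 counts in all 5 libraries at 28.6°C, against 9.75, 13.9, 10.1, 7.82 and 9.13 CPM at 25°C, a total of 420 counts. Against a floor of 3 counts per library its level at 28.6°C was at least 27.0-fold lower, and it also had 0 counts in the libraries at 15.5°C and 20°C. The unannotated comp48583_c0 had 1 count at 28.6°C, against 1956 counts at 25°C, a ratio of 1910 for 25°C over 28.6°C after scaling (exact interval from counting error at 95% confidence, 342.4 to 7.548e+04). It had 0 counts at 20°C and 2 at 15.5°C. Each temperature was a single pool, so these sequences mark the pool at 25°C as well as its temperature, and the 2 cannot be told apart.

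Large changes were also found in 3 further unannotated subcomponents. The first (comp62588_c4) had 0.431, 0.820, 0.406, 0.878 and 0.652 CPM at 28.6°C, against 28.7, 30.4, 30.3, 35.5 and 30 CPM at 25°C, a log2 change of -5.15 (standard error 0.12), and was at 20.1 CPM or more on average at the cooler temperatures. The subcomponent comp53969_c0 had 489, 422, 419, 443 and 461 CPM at 28.6°C, against 5.54, 7.16, 5.23, 5.46 and 7.46 CPM at 25°C, a log2 change of 6.13 (standard error 0.080, edgeR adjusted p = 1.05e-31), with all of its reads on single contigs. The subcomponent comp64460_c4 had 128, 156, 128, 130.3 and 64.4 CPM at 28.6°C, against 2.57, 1.29, 1.58, 2.48 and 1.78 CPM at 25°C, a log2 change of 5.78 (standard error 0.20). Its replicate 5 at 28.6°C was lower than the other 4 and still far above every library at 25°C.

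Summing contigs changed how many differences were found. Of 30413 contigs tested, 1518 (4.99%) were differentially expressed, 860 (2.83%) higher and 658 (2.16%) lower at 28.6°C. With only the libraries of read limit 99 the count was 970. A called contig was found in 1130 subcomponents, of which 297 were also called as a sum, and 44 sums were called without any of their contigs. In 27 subcomponents contigs were called in opposite directions, 4 of them annotated. In lethal(2)essential for life (comp64489_c0) 9 of 15 contigs were called higher and 2 lower. The lower ones were minor, with 1.62 and 0.593 CPM on average at 28.6°C, whereas the most abundant contig (seq7) averaged 3844 CPM. None of the reads of seq7 or of the lower contigs were unique to them. The serine protease inhibitor I/II (comp64769_c0), NDRG3 (comp65185_c2) and innexin inx7 (comp64534_c0) had sums that changed by -0.48, 0.13 and -1.23, none of them called, although each had contigs called in both directions. At most 6.80% of the counts of these called contigs were unique to them, so the opposite directions rest on how the authors' program divided shared reads. With unique counts alone, 2 subcomponents held opposite contigs. Innexin inx7, a gap junction protein, had 9.25 to 10.7 CPM at 28.6°C, against 23.4 to 25.8 CPM at 25°C as a sum. Its contig seq4 changed by 3.13, from a mean of only 0.171 CPM at 25°C, and its contig seq2 by -2.34.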

How the data were processed

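RNA of thorax tissue was sequenced in 20 libraries, 5 per temperature. According to the study's methods the authors trimmed reads with Trim Galore 0.3.0, joined overlapping pairs with FLASH, assembled them with Trinity, aligned them with Bowtie2 2.0.6 and counted them with eXpress 1.5.1. Tool versions follow the submitters' processing notes, which also list edgeR 1.2.4. The deposited files hold, for each of 135858 contigs, an estimated count (the authors' program splits a read with several possible contigs between them), an effective count (an expected count adjusted for length bias) and a unique count of reads that map to a single contig. The deposited log2 table of the study was used only for its annotation of 528 subcomponents, and its log2 values were not used. In 44 subcomponents the contigs had different names, and the most frequent name was taken.

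Estimated counts were rounded and summed over the contigs of each of 79613 subcomponents, and the 10 contigs of comp65386_c0 were left out. Subcomponents with at least 2 CPM in at least 4 libraries were kept. All 20 libraries entered a quasi-likelihood fit in edgeR 4.0.16 (R 4.3.3) with TMM factors, a coefficient per temperature, a prior count of 2 for fold changes and Benjamini-Hochberg adjustment over all features tested. The same fit was made on contigs and on the difference between steps. Standard errors are the log2 change divided by the square root of F. Intervals and floors cover counting error only. Tables were built in Python 3.11.15 (pandas 2.3.3, scipy 1.17.1). The procedure was tested on simulated data.

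The comparison, the gene lists and the alternatives were chosen with earlier results of these data known. Genes named are the 15 largest annotated rises and falls that were differentially expressed, averaged 10 CPM or more and did not overlap between libraries, the study's 31 targets and 3 references, up to 4 members of each list with the smallest adjusted p, the 2 largest unannotated rises and falls, up to 5 annotated subcomponents with contigs in opposite directions, and the 5 largest differences between steps in each direction. Not every gene chosen by the rule is discussed. Genes given as the exception, the smallest change or a further copy within a list, such as calcyclin-binding protein, DnaJ protein homolog 1, trypsin-5 and peritrophin-48, were chosen after their values were seen. The alternatives were other scalings, DESeq2 1.42.0, the edgeR likelihood ratio test, other filters, effective and unique counts, comp65386_c0 kept, the read limit (99 or 188) as a covariate or held at 99, a replicate block, the annotated contig alone and each library left out. A list of respiratory chain genes matched no annotation.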

Additional observations from a re-analysis of the deposited data

Results flagged for a closer look

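In 258 groups of 5 libraries, covering 124 named genes, the ribosomal-like share and the summed levels of 4 lists, 15 groups had a library set apart from the other 4 by Dixon's criterion, which chance alone meets in about 1 group of 20. At 28.6°C these were ornithine aminotransferase (comp59485_c0) in replicate 3 (118.6 CPM, group median 140.6), innexin inx7 in replicate 5 (9.25 CPM, median 10.5), the unannotated reference in replicate 3 (32.6 CPM, median 27.9) and comp48583_c0 in replicate 2, where its single count gave 0.117 CPM. At 25°C replicate 1 was highest for the translocon-associated subunit beta (41.8 CPM, median 35.5), inositol oxygenase (54.4 CPM, median 45.9), chymotrypsin BI (345 CPM, median 295) and Aha1 (20.4 CPM, median 17.8). This is the library at 25°C with the read limit of 99. Replicate 2 at 25°C was highest for myosin light chain kinase (43.4 CPM, median 31) and lowest for hsp70 cognate 5 (92.7 CPM, median 103), the Man9GlcNAc2 glucosyltransferase (6.59 CPM, median 10.9) and a PiggyBac element (comp59221_c0, 6.02 CPM, median 7.49). Replicate 5 at 25°C was highest for cuticle protein 6 (comp53736_c0, 29.3 CPM, median 24.8) and Mariner Mos1 transposase (13.7 CPM, median 11.5), and replicate 4 for comp62588_c4 (35.5 CPM, median 30.3).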

How the results depend on the processing

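The count of differentially expressed subcomponents (341) moved to 523 with no filter, 146 with the stricter filter of 10 CPM in 5 libraries, 768 with effective counts and 9008 by the adjusted p alone, and was within 1.5 times under the other settings, among them DESeq2 (465), unique counts (403) and the libraries of read limit 99 (334, where the lone library at 25°C was assumed to vary like the other groups). The contig count (1518) moved to 503 with the stricter filter, 595 with unique counts, 970 with the libraries of read limit 99 and 9200 by the adjusted p alone. The count of differences between steps (1118) moved to 1890 with no filter and 533 with the stricter filter. Subcomponents with opposite contigs (27) became 49 with DESeq2, 45 with no filter, 3 with the stricter filter, 2 with unique counts and 11 with read limit 99. The filters change how many features are tested, and the cause of the other moves was not tested. Leaving out each of the 10 libraries gave 316 to 345 subcomponents, 1423 to 1481 contigs, 1095 to 1131 differences between steps, 24 to 34 subcomponents with opposite contigs and a difference in ribosomal-like share of 6.10 to 8.65 points (exact permutation p 0.00794 to 0.0159).

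The replicate numbers did not pair the libraries, as deviations of same-numbered libraries correlated by 0.349, 0.0188, 0.0473, 0.171 and 0.0419. With the replicate block the counts were 352 subcomponents, 1530 contigs, 1119 differences between steps and 32 subcomponents with opposite contigs.

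Of 3078 values for 124 named genes under alternatives, 3054 kept their direction and side of the threshold. Direction reversed for 6 genes, each with unique counts: log2 changes of -0.67 for nutrient amino acid transporter 1, 0.82 for luciferin 4-monooxygenase, 1.69 for henna, 0.94 for juvenile hormone-suppressible protein 2 (comp64679_c1), and -0.62 (comp59221_c0) and -0.019 (comp65604_c1) for the PiggyBac elements. NDRG3, with a log2 change of 0.13, lost its significance under 11 alternatives. With 1 pool per temperature, no setting measures variation between larvae, and levels near 2 CPM rest on few counts.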

Other observations

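Genes derived from transposable elements were few and changed little apart from the Tigger element. Of 6 in the list 4 rose and 1 fell, with a median log2 change of 0.53. PiggyBac element-derived protein 4 had 12.1 to 13.3 CPM at 28.6°C, against 6.02 to 7.57 CPM at 25°C in comp59221_c0 (log2 change 0.81), and 65.4 to 77.5 CPM at 28.6°C, against 42.9 to 52.1 CPM at 25°C in comp65604_c1 (0.66), and neither rise was found with unique counts. Mariner Mos1 transposase fell by 0.57. Among the targets of the study not described above, read as sums, the RNA-binding protein Rsf1 rose by 1.31 and the mitochondrial enolase superfamily member 1 fell by 0.73. The MAPK-activator (annotated as an Arf-GAP) fell by 0.59 and PGM by 0.47, and the sum of each lost significance under 1 alternative. The target contig of PGM had overlapping libraries and did not pass the test (log2 change -0.40, edgeR adjusted p = 0.295).

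Libraries varied slightly more among themselves at 28.6°C. Over 6770 subcomponents with a mean of at least 10 CPM the median coefficient of variation was 8.20% at 28.6°C and 7.05% at 25°C, and 62.1% of them varied more at 28.6°C.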
